A study of Mus musculus with 4 samples.

Results

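The 9 genes described here encode lineage transcription factors of microglia and macrophages, Sall1, Mef2a, Mef2c, Maf, Irf8, Spi1, Bhlhe41, Zeb1 and Zeb2. They were taken as the rows of the count matrices that carry these symbols, 9 of 31053 gene rows, and each symbol matched 1 row. The cells came from the spinal cord of C57BL/6 mice, 3 months old at surgery and of both sexes per the study's methods, and were sorted as live CD45+ cells, that is, cells carrying the pan-leukocyte surface protein CD45. There were 4 libraries, 1 per condition, and mice of a condition were pooled: sham surgery (the spine opened without a contusion) with the standard dissociation, sham surgery with actinomycin D (ActD) in the dissociation, and moderate contusion of the thoracic cord followed by collection at 3 or 14 days post injury (dpi). ActD blocks transcription while the tissue is being dissociated. The labels mark it (as Act-seq) for the second sham library alone. The study's account gives the same protocol for the injured cords, and by that account the standard sham library stood alone in lacking it. The labels name no transgene. The classes of cells were microglia, macrophages of the borders of the cord (meningeal and perivascular), macrophages of the injury, monocytes and dendritic cells (DC), set by marker genes among which none of the 9 factors stood.

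Spi1 encodes PU.1, an ETS factor that opens enhancers throughout the myeloid lineage, and Irf8 encodes an interferon regulatory factor that binds many of the same enhancers as a partner of PU.1 and is needed for type 1 conventional DC and plasmacytoid DC. Sall1, a zinc finger factor, is the factor by which microglia are best told from other macrophages, and Mef2a and Mef2c encode MADS-box factors whose motif is common in microglial enhancers. Maf encodes c-MAF, a basic leucine zipper factor of tissue-resident macrophages, Bhlhe41 a basic helix-loop-helix repressor found in microglia, and Zeb1 and Zeb2 a pair of zinc finger repressors that bind E-boxes, of which Zeb2 acts in macrophages, monocytes and plasmacytoid DC.

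The matrices held 2439 to 11631 barcodes and 27447471 to 129935880 UMIs (unique molecular identifiers, each counting 1 captured molecule) per library, and 2143 to 9444 cells per library were kept, with median depths of 7498 to 9663 UMIs. Pairs of libraries shared 3 to 36 barcodes, at most 0.697% of the smaller library. The class names stand for cells that look like that class by markers (microglia-like, and so on). Between 5.46% and 24.6% of the cells of a library, most at 3 dpi, met no class and were left out. Microglia numbered 3028 in the standard sham library, 1700 in the ActD sham library, 753 at 3 dpi and 4188 at 14 dpi, and border macrophages 58, 78, 140 and 60. Injury macrophages numbered 2734 at 3 dpi. Another 56 cells met that class at 14 dpi but had 1 marker of the class among their 10 leading genes, so they were left out. Classical monocytes (133, 269 and 509 in the standard sham, 3 dpi and 14 dpi libraries), type 2 conventional DC (cDC2, 373 and 236 at 3 and 14 dpi), migratory DC (59 and 41 at 3 and 14 dpi) and plasmacytoid DC (52 and 45 in the standard sham and 14 dpi libraries) came from 2 or 3 libraries. Non-classical monocytes (90) and cDC1 (37) came from 14 dpi alone. Levels are given as CPM, the UMIs of a gene scaled to the same total in every class and library. The microglial markers summed to 7354 to 28660 CPM in microglia and to at most 3818 CPM in any other phagocyte class. The same markers set the classes, so these sums do not test the labels. Some classes were less clean: cDC2 at 3 dpi were led by MHC class II genes without Cd209a, cDC1 had as many cDC2 as cDC1 markers among their 10 leading genes (3 each), classical monocytes of the standard sham library had 2 injury macrophage markers beside 2 of their own, and 62.1% of the border macrophages at 3 dpi lay in border macrophage clusters. Of plasmacytoid DC in the standard sham library 73.1% lay in clusters of that class, and 0% of non-classical monocytes and of cDC1 did.

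The genes lie at the following positions (that of Zeb1 is given with its values) of the mouse build GRCm38, as annotated by GENCODE M21. Sall1 spans chr8:89027235-89044162 on the minus strand. Maf spans chr8:115682942-115707794 on the minus strand and Irf8 chr8:120736358-120756694 on the plus strand of the same chromosome. Mef2a spans chr7:67231163-67372858 on the minus strand and Mef2c chr13:83504034-83667080 on the plus strand. Spi1 spans chr2:91082390-91115756 on the plus strand and Zeb2 chr2:44983632-45117395 on the minus strand of the same chromosome. Bhlhe41 spans chr6:145858243-145865558 on the minus strand. All 9 members are annotated as protein coding.

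Promoter windows of 250 bases before a start annotated by RefSeq on GRCm38.p6 were matched for 6 of the 9 members, Sall1, Mef2a, Mef2c, Irf8, Bhlhe41 and Zeb2. A RefSeq start can differ from the GENCODE span above, and the Bhlhe41 window lies partly within that span. They were searched on both strands for the core of the PU.1 site (GAGGAA), for the E-box bound by BHLHE41 (CACGTG) and for the E-box bound by ZEB factors (CAGGTG), since members of this list bind these letters. The 3 windows below are those of Sall1 and Bhlhe41, the members called higher in microglia than in the most other classes (8 and 7), and of Mef2a, which holds 2 PU.1 cores. Each is written 5′ to 3′ on the strand of the gene, with the matches in capitals.
Sall1 (chr8:89044163-89044412, minus strand): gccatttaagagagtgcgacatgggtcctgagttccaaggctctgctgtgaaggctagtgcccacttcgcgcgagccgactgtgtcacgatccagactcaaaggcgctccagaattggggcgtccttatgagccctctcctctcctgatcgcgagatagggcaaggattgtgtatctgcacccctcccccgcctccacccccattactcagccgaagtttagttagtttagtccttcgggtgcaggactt
Bhlhe41 (chr6:145865421-145865670, minus strand): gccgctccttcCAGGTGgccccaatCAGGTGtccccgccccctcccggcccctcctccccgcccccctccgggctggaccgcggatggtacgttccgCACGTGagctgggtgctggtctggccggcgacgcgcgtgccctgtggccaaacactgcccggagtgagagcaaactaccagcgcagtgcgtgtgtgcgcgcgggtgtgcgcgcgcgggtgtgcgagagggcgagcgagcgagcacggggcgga
Mef2a (chr7:67372859-67373108, minus strand): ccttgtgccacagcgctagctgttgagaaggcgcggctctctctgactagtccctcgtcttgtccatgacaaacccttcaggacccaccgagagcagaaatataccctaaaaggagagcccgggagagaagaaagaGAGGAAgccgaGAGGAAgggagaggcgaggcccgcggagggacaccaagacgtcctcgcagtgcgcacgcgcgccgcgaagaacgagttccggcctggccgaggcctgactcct
The Sall1 window held none of these letters, the Bhlhe41 window held 1 CACGTG and 2 CAGGTG, and the Mef2a window held 2 GAGGAA. Of the 14 windows of the 6 members, GAGGAA also stood once in 2 of the 3 Mef2c windows and in each of the 4 Zeb2 windows, and CAGGTG in 1 of the 2 Irf8 windows. Of the Zeb2 windows, 2 overlap and hold the same GAGGAA. Of all 32851 mouse windows, 23.3% held GAGGAA, 6.02% CACGTG and 17.2% CAGGTG on either strand. A GAGGAA or CAGGTG in a single window is thus common and a CACGTG less so. Any match describes letters, not binding.

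**Figure D1:**
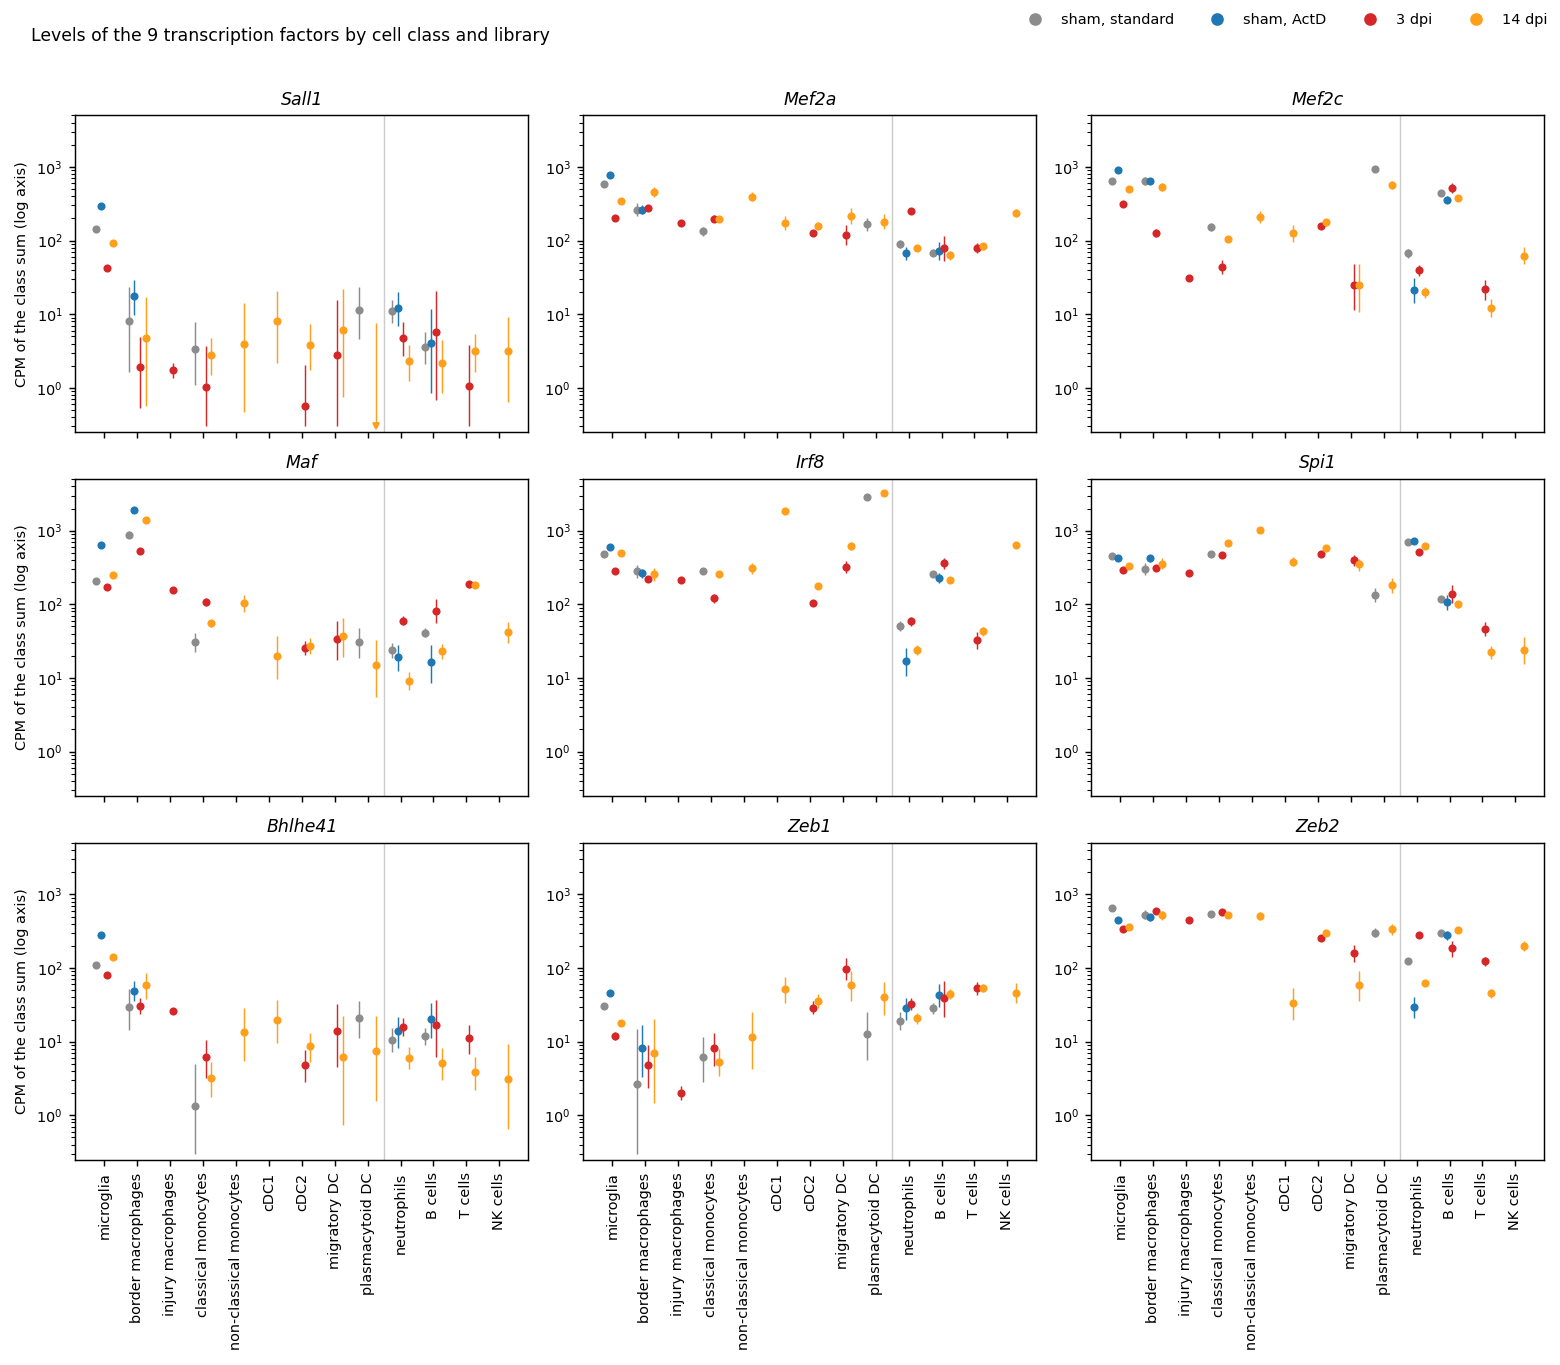
Level of each of the 9 transcription factors (CPM of the summed UMIs of a class, log axis) in each cell class and library, with exact 95% Poisson intervals that cover counting error. Points right of the grey line are classes outside the mononuclear phagocytes, and a triangle marks a sum of 0 UMIs. Sall1 lay between 42.3 and 296 CPM in microglia and at or below 17.7 CPM in every other phagocyte class.

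Sall1 was the 1 member called higher in microglia than in all 8 other classes of phagocytes. Its level there was 143 CPM in the standard sham library (95% Poisson interval 138 to 148), 296 CPM with ActD, 42.3 CPM at 3 dpi and 93.1 CPM at 14 dpi. Border macrophages had 7.99, 17.7, 1.94 and 4.71 CPM in the same libraries, and injury macrophages 1.72 CPM. In monocytes and DC it ranged from 0 UMIs in plasmacytoid DC at 14 dpi, which allows up to 7.54 CPM, to 11.3 CPM in plasmacytoid DC of the standard sham library. Microglia thus lay above every other phagocyte class without overlap of the libraries, and the next 5 classes in the order (border macrophages, cDC1, plasmacytoid DC, migratory DC and non-classical monocytes) overlapped each with its neighbour. Neutrophils, in which Sall1 is not known to act, had 2.29 to 12.2 CPM, and all values outside microglia but the 17.7 CPM of ActD border macrophages lay at or below 12.2 CPM.

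The class differences were tested with edgeR's quasi-likelihood test on UMIs summed per class and library, 20 sums of 9 classes with the library as a block, over 11876 genes. A gene was called at an adjusted p below 0.05 and a difference of at least 2-fold. Injury macrophages, non-classical monocytes and cDC1 each had a single sum, which was assumed to vary like the other classes, and since mice were pooled the p-values measure the spread between these sums. For Sall1 the log2 difference was 4.22 ± 0.32 (SE) over border macrophages (4 libraries of each class), 4.18 ± 0.50 over injury macrophages and 5.28 ± 0.37 over classical monocytes. It was smallest over cDC1, at 3.57 ± 0.65, with an adjusted p of 0.0044 from edgeR. Without the 14 dpi library the difference from injury macrophages was 4.27 with an adjusted p of 0.061. The border macrophage call was lost with sums of at least 100 cells (4.38, adjusted p = 0.085), and those on non-classical monocytes and cDC1 with no library block (5.23 and 4.004, adjusted p = 0.058 and 0.13).

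Bhlhe41, like Sall1, was highest in microglia and next in border macrophages, with a smaller step to the macrophages. The order of the other classes differed, with injury macrophages at place 3 for Bhlhe41 and last for Sall1. Microglia held 109, 277, 79.6 and 143 CPM, in the order of libraries used for Sall1. Border macrophages held 29.3, 49.5, 30.6 and 58.8 CPM and injury macrophages 26.3 CPM, so that every microglial value lay above every border macrophage value. Classical monocytes were lowest, with 1.36, 6.12 and 3.19 CPM. The log2 difference was 1.88 ± 0.34 over border macrophages (adjusted p = 0.0022, edgeR) and 5.04 ± 0.46 over classical monocytes. Over injury macrophages it was 1.76 ± 0.57 and was not called (adjusted p = 0.10, edgeR). It was called against the other 5 classes, with log2 differences of 2.72 (cDC1) to 4.18 (cDC2). The cDC1 call was lost without the ActD sham library (adjusted p = 0.053), and those on migratory and plasmacytoid DC without the 14 dpi library (0.12 and 0.10).

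Mef2a and Mef2c, the MADS-box pair, differed from each other in the phagocytes they marked. Mef2a was at 587, 772, 204 and 345 CPM in microglia, at 264, 264, 274 and 459 CPM in border macrophages and at 172 CPM in injury macrophages. The border macrophage and microglial values overlapped, and the log2 difference of 0.63 ± 0.32 was not called (adjusted p = 0.27, edgeR). Mef2a was called higher in microglia than in classical monocytes (log2 1.18 ± 0.36), cDC2 (1.48 ± 0.43) and plasmacytoid DC (1.72 ± 0.43). All 3 of these calls were lost without the 14 dpi library (adjusted p = 0.21, 0.43 and 0.23) and also without the standard sham library (0.27, 0.067 and 0.13). Classical monocytes held 134, 199 and 195 CPM in the standard sham, 3 dpi and 14 dpi libraries. At 3 dpi they were thus close to the 204 CPM of microglia.

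Mef2c was at 648, 897, 318 and 509 CPM in microglia. Injury macrophages held 31.3 CPM, below every microglial library, and the log2 difference was 2.90 ± 0.50 (adjusted p = 0.0045, edgeR), which without the 14 dpi library was 2.73 with an adjusted p of 0.076. Border macrophages held 642, 650, 126 and 532 CPM, so their 3 dpi value stood far below the others of that class, and the difference from microglia of 0.49 ± 0.25 was not called. Classical monocytes (43.9 to 153 CPM) and migratory DC (25.1 and 24.6 CPM) were lower than microglia, with log2 differences of 2.41 ± 0.30 and 3.83 ± 0.44. Plasmacytoid DC, in which Mef2c is known to act with their other regulators, held 934 and 568 CPM and stood first in the order, overlapping microglia (log2 0.12 ± 0.33, adjusted p = 0.86, edgeR). Mef2c was also called higher in microglia than in cDC1 (1.96 ± 0.49) and cDC2 (1.09 ± 0.34). Of 18 alternative runs, 6 lost the call against cDC2. The cDC2 call was lost without the 14 dpi library (adjusted p = 0.74) and stood at an adjusted p of 0.050 without the standard sham library.

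Maf ran the other way between the resident macrophages. Border macrophages held 884 CPM in the standard sham library, 1932 CPM with ActD, 529 CPM at 3 dpi and 1402 CPM at 14 dpi. Microglia held 210, 632, 173 and 252 CPM, lower than border macrophages in 4 of 4 libraries, though the ActD microglia lay above the 3 dpi border macrophages. The log2 difference of microglia over border macrophages was -1.89 ± 0.37 (adjusted p = 0.0037, edgeR), and without the 14 dpi library -1.80 with an adjusted p of 0.094. Injury macrophages held 156 CPM, just under the lowest microglial library, and were not called (log2 0.29 ± 0.63, adjusted p = 0.92). Monocytes and DC held 15.1 to 108 CPM. Maf was called higher in microglia than in classical monocytes (log2 1.75 ± 0.43), cDC1 (3.55 ± 0.85), cDC2 (3.12 ± 0.54), migratory DC (2.66 ± 0.60) and plasmacytoid DC (3.5 ± 0.60). Of these, the classical monocyte, cDC2, migratory and plasmacytoid DC calls were lost without the 14 dpi library (adjusted p = 0.12 to 0.19), and the classical monocyte call without the standard sham library (0.053).

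Spi1 was called in 2 of the 8 comparisons, with non-classical monocytes above and plasmacytoid DC below microglia. Microglia held 447, 425, 290 and 327 CPM, border macrophages 301, 420, 315 and 358 CPM, and injury macrophages 267 CPM. Neither macrophage class was called against microglia, with log2 differences of 0.20 ± 0.20 and 0.03 ± 0.34. Non-classical monocytes were highest, at 1015 CPM, and the log2 difference of microglia over them was -1.27 ± 0.32 (adjusted p = 0.022, edgeR), which without the 3 dpi library had an adjusted p of 0.055. Classical monocytes held 475, 462 and 682 CPM, less than 2-fold above microglia (log2 -0.62 ± 0.22, adjusted p = 0.043), so they were not called. Plasmacytoid DC were lowest at 134 and 183 CPM, and microglia exceeded them by 1.54 ± 0.28 on the log2 scale (adjusted p = 0.0011, and 0.088 without the 14 dpi library).

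Irf8 was highest in the DC that depend on it. Plasmacytoid DC held 2843 CPM in the standard sham library and 3205 CPM at 14 dpi, and cDC1 1856 CPM. Microglia held 482, 606, 287 and 490 CPM, below all 3 of those sums, and the log2 differences were -2.24 ± 0.23 from plasmacytoid DC and -1.93 ± 0.29 from cDC1 (adjusted p = 1.5e-05 and 0.0010, edgeR). Migratory DC (321 and 621 CPM) overlapped microglia. Border macrophages held 280, 264, 218 and 256 CPM, below microglia in 4 of 4 libraries, with a log2 difference of 0.91 ± 0.19 whose adjusted p was 0.0052 but which fell short of 2-fold. Injury macrophages held 214 CPM against 287 CPM in microglia of the same library. Classical monocytes (284, 120 and 256 CPM) and cDC2 (104 and 177 CPM) were called lower than microglia, by 1.03 ± 0.21 and 1.49 ± 0.25. Of 18 alternative runs, 6 lost the classical monocyte call. The classical monocyte call sat at the fold limit and was lost without the 3 dpi library (log2 0.97) and without the ActD sham library (0.998), and both calls were lost without the 14 dpi library (adjusted p = 0.10 and 0.17).

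Zeb1 and Zeb2, close relatives with the same binding motif, differed in the classes that held them. Zeb1 spans chr18:5591860-5775467 on the plus strand of GRCm38. Zeb1 was at 30.2, 46.1, 12 and 18.2 CPM in microglia. Border macrophages held 2.66, 8.25, 4.86 and 7.06 CPM, from 1, 7, 10 and 3 UMIs. The log2 difference of microglia over them was 2.20 ± 0.46 (adjusted p = 0.0056, edgeR, and 0.051 without the 14 dpi library). Injury macrophages held 2.01 CPM, 2.98 ± 0.64 lower on the log2 scale (adjusted p = 0.015, and 0.12 without the 14 dpi library). The highest sums were those of migratory DC, 97.8 and 58.4 CPM, which exceeded microglia by 2.07 ± 0.48 on the log2 scale (adjusted p = 0.0071, edgeR). That call was lost without the 3 dpi library (0.16) and without the 14 dpi library (0.081). Conventional DC also lay high, cDC1 at 51.8 CPM and cDC2 at 29.0 and 36.2 CPM, without a call. Zeb1 was called higher in microglia than in classical monocytes (1.66 ± 0.42, and an adjusted p of 0.14 from edgeR without the 14 dpi library). Neutrophils, outside these comparisons, held 19.3 to 32.4 CPM of Zeb1, above microglia at 3 and 14 dpi.

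Zeb2 was at 652, 448, 339 and 365 CPM in microglia, at 527, 488, 601 and 520 CPM in border macrophages, at 445 CPM in injury macrophages and at 523 to 571 CPM in classical monocytes. These ranges overlapped, and the log2 differences of microglia over them, -0.15, -0.18 and -0.28, were not called. In cDC1 Zeb2 was at 33.9 CPM, far below every microglial library (log2 3.51 ± 0.57, adjusted p = 0.0018, edgeR). Migratory DC held 159 and 58.4 CPM (log2 1.96 ± 0.38, adjusted p = 0.0020, and 0.21 without the 14 dpi library). The DC classes with high Zeb1 and low Zeb2 were thus cDC1 and migratory DC, while plasmacytoid DC held 303 and 334 CPM of Zeb2 and were not called.

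In all, 41 of the 72 differences between microglia and another class were called over the 9 members. Of these, 13 were called under every alternative that could be run. The losses named above with each member are not a full list. The alternatives numbered from 13 (cDC1) to 18 per difference. Those on non-classical monocytes and cDC1 could not be refitted without the 14 dpi library. Against border macrophages 4 of 9 members were called (9.41% of all genes tested), against injury macrophages 3 (5.32%), against classical monocytes 7 (23.5%) and against non-classical monocytes 3 (9.22%). Against cDC1, cDC2, migratory DC and plasmacytoid DC 6 members each were called, beside 6.3%, 15.8%, 19.7% and 19.4% of all genes. The median log2 difference of the 9 members was 0.63 over border macrophages and 1.66 over classical monocytes, where the medians of all genes tested were 0.08 and 0.07. Of the 32 calls that could be refitted without the 14 dpi library, 21 were lost, and none changed sign.

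**Figure D2:**
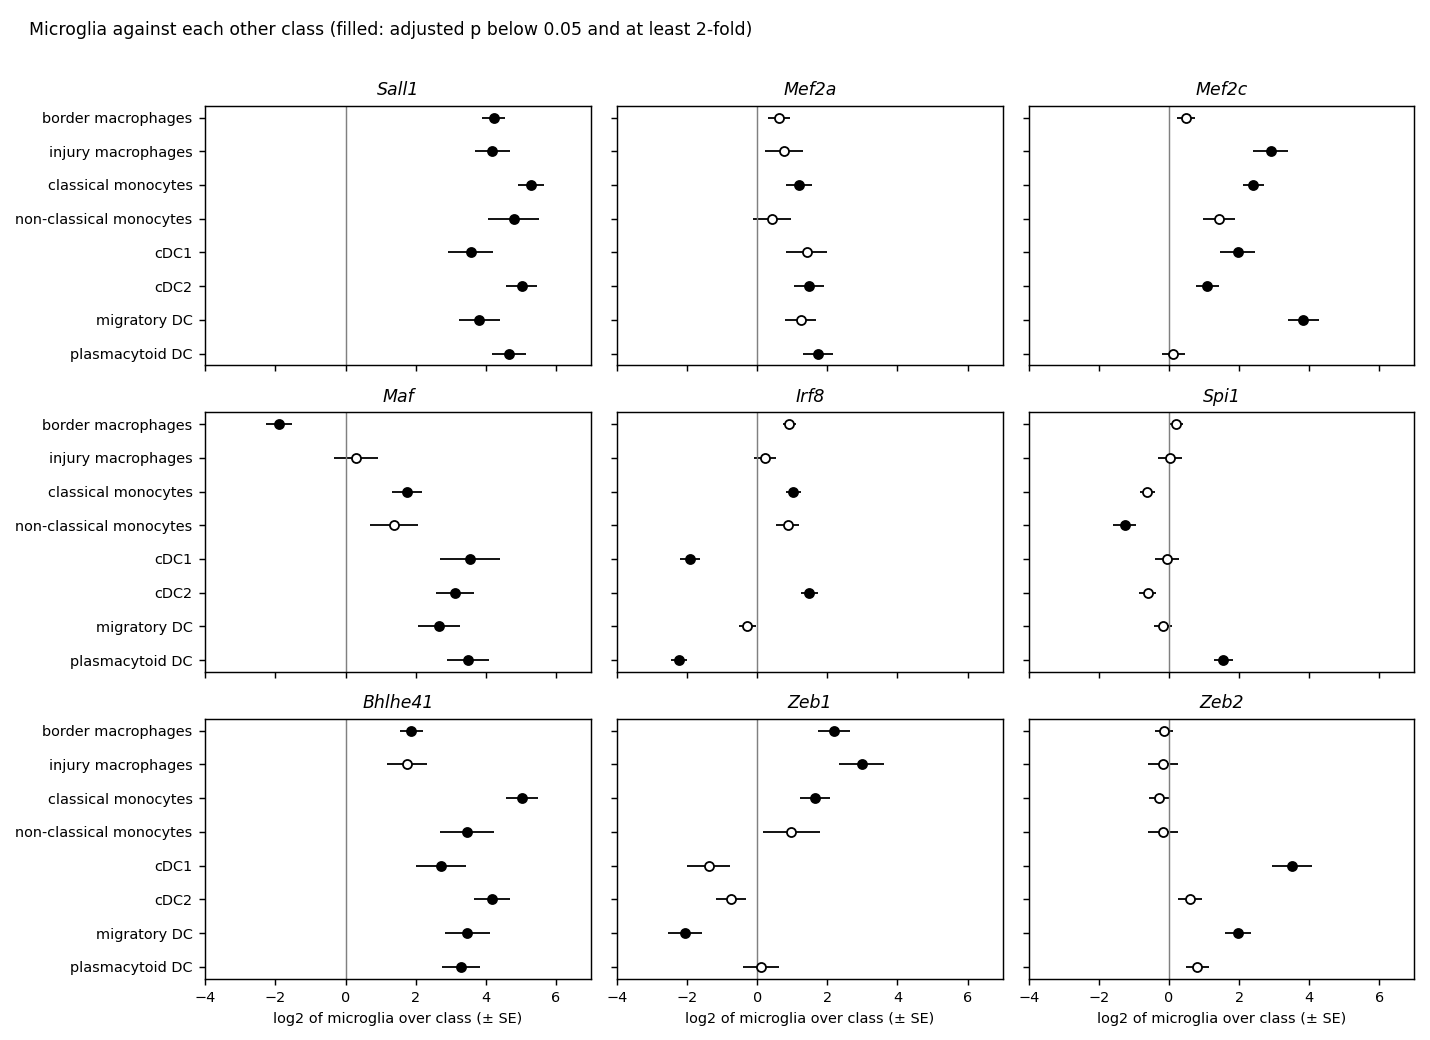
Fitted log2 difference of microglia over each other class (x axis, ± SE) for the 9 members, with filled points for an adjusted p below 0.05 in edgeR and at least 2-fold. Sall1 was filled against all 8 classes, Maf lay left of 0 against border macrophages (-1.89), and Irf8 left of 0 against plasmacytoid DC (-2.24) and cDC1 (-1.93).

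Shares of cells with at least 1 UMI were compared after thinning each cell to 2000 UMIs, since depths differed between classes. At that depth Sall1 was seen in 26.4% of microglia of the standard sham library (Clopper-Pearson 95% interval 24.8 to 28.1), 43.9% with ActD, 9.18% at 3 dpi and 17.8% at 14 dpi. When not thinned these shares were 59.1%, 85.5%, 48.2% and 57.4%. In neutrophils of the same libraries the thinned share was 0.847%, 3.41%, 1.12% and 0.628%, and in border macrophages it was 1.85%, 1.32%, 0 of 132 cells (which allows up to 2.27%) and 1.67%, within the background. Injury macrophages were at 0.414% (0.207 to 0.739). Maf was seen in 77.8%, 90.8%, 65.9% and 90% of border macrophages and in 34.3%, 63.9%, 29.8% and 39.0% of microglia. Irf8 was seen in 100% and 97.8% of plasmacytoid DC and 97.1% of cDC1, but in 15.4% to 17.0% of cDC2, against 3.41% to 9.49% of neutrophils. Spi1 was seen in 45.5% to 58.4% of microglia and in 3.80% to 10.7% of T cells, which lack it. These intervals cover counting error only, and the cells of a library are not replicates.

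**Figure D3:**
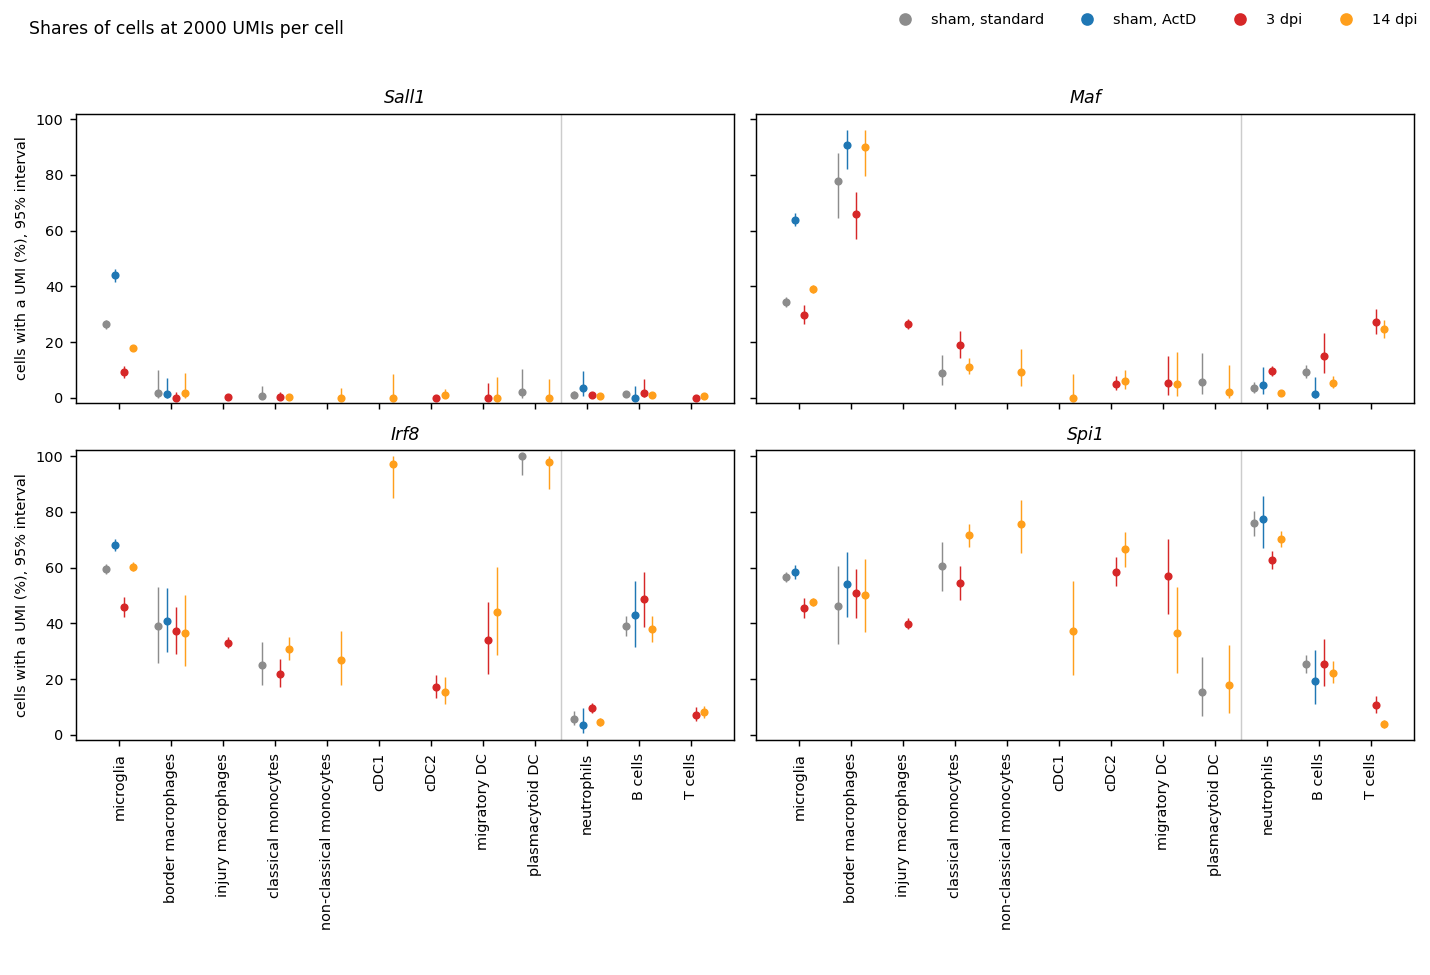
Share of cells (percent, y axis) with at least 1 UMI of Sall1, Maf, Irf8 or Spi1 after thinning to 2000 UMIs, by class and library, with exact 95% binomial intervals. Sall1 was above 9% in microglia alone among the classes plotted, Maf was highest in border macrophages (65.9% to 90.8%), and Irf8 reached 97.1% to 100% in cDC1 and plasmacytoid DC.

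Between conditions there was 1 library each, so the values below compare libraries and carry no test. The libraries also differed in the software release that wrote the matrices (3.0.1 for the sham library without ActD and for 3 dpi, 3.1.0 for the ActD sham library and for 14 dpi), so the release was the same for 14 dpi over the ActD sham library and for 3 dpi over the standard one, and cannot be told apart from condition in the other pairs. In microglia 7 of the 9 members were at least 2-fold lower at 3 dpi than in the ActD sham library, where 45.9% of all genes were past 2-fold, 32.6% lower and 13.3% higher. Sall1 stood at 0.143 times its sham level (95% counting interval 0.132 to 0.155), Zeb1 at 0.259, Mef2a at 0.265, Maf at 0.274, Bhlhe41 at 0.287, Mef2c at 0.355 and Irf8 at 0.473. Spi1 (0.683) and Zeb2 (0.756) moved less. These ratios compare shares of all UMIs, not UMIs per cell. The 753 microglia at 3 dpi held 16958500 UMIs, and the 1700 of the ActD sham library held 17901500. Irf8 had 4859 UMIs in the former and 10844 in the latter, and Spi1 had 4916 and 7603. The part of this difference in depth in the ratios was not tested. The median gene was at a log2 ratio of -0.53, and relative to it Sall1 was at -2.27, the 5 next members between -1.42 and -0.96, Irf8 at -0.55, Spi1 at -0.02 and Zeb2 at 0.13. With TMM scaling 6 members were past 2-fold and Irf8 stood at 0.666. Genes were then 20.9% higher and 17.9% lower, and the Zeb2 ratio turned to 1.06.

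At 14 dpi 4 members were at least 2-fold below the ActD sham level in microglia (25.4% of all genes were past 2-fold, 19.7% lower and 5.72% higher). They were Sall1 at 0.315 (0.303 to 0.328), Zeb1 at 0.394, Maf at 0.399 and Mef2a at 0.447. Bhlhe41 stood at 0.516, Mef2c at 0.568, Spi1 at 0.769, Irf8 at 0.809 and Zeb2 at 0.815. The median gene was again low, at -0.54, and relative to it Sall1 was at -1.12, Zeb1 at -0.80, Maf at -0.78 and Mef2a at -0.62, while Irf8 (0.24), Zeb2 (0.25) and Spi1 (0.16) lay above it. With TMM scaling Sall1 alone was past 2-fold (0.457), the ratios of Irf8, Spi1 and Zeb2 turned to 1.17, 1.11 and 1.18, and genes were 10.2% higher and 7.36% lower. From 3 to 14 dpi all 9 members were higher, Sall1 most (2.20, 2.04 to 2.39), then Bhlhe41 (1.79), Irf8 (1.71) and Mef2a (1.69), with Zeb2 least (1.08). Sall1 was past 2-fold, as were 25.5% of all genes, 11% higher and 14.5% lower.

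The 2 sham libraries differed too. In microglia of the standard sham library Maf was at 0.332 (0.321 to 0.344), Bhlhe41 at 0.392 and Sall1 at 0.484 times the ActD level, and these 3 members were past 2-fold, beside 30.5% of all genes, 22.7% lower and 7.73% higher. Spi1 (1.05) and Zeb2 (1.46) were higher without ActD. Relative to the median gene at -0.55, Maf was at -1.04, Bhlhe41 at -0.80 and Sall1 at -0.50, and Zeb2 was at 1.09. With TMM scaling Maf (0.479) and Zeb2 (2.10) were past 2-fold, genes were 11.2% higher and 8.95% lower, and the ratios of Mef2a, Mef2c and Irf8 turned from 0.760, 0.722 and 0.795 to 1.10, 1.04 and 1.15. In the same cells the MAF relative Maff was at 223 (133 to 408) and the early-response factor Nr4a1 at 203 times its ActD level. Any fold against a sham library therefore depends on which sham library is used. Against the standard one, Maf at 3 dpi stood at 173 against 210 CPM, and at 14 dpi it was higher, at 252 CPM.

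**Figure D4:**
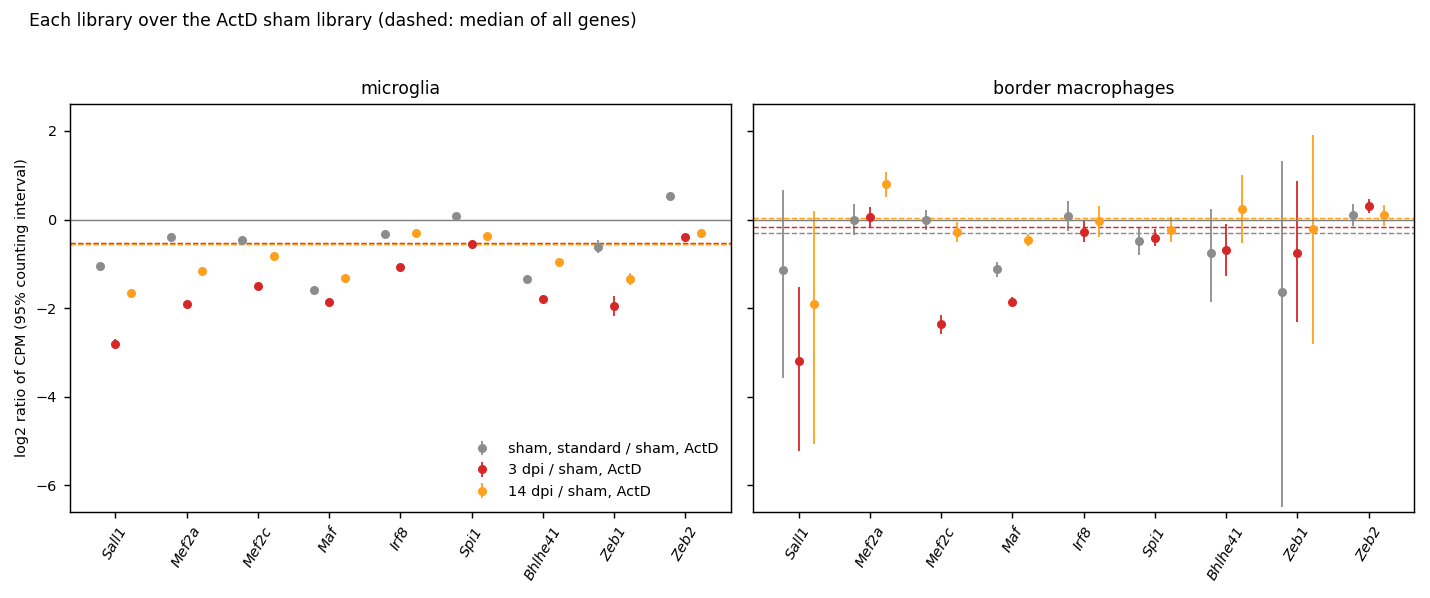
Log2 ratio of CPM of each library over the ActD sham library for the 9 members in microglia (left) and border macrophages (right), with exact 95% counting intervals, cut at the lower edge of the panel, and the median of all genes as dashed lines. In microglia at 3 dpi Sall1 lay lowest (-2.81) and Spi1 (-0.55) and Zeb2 (-0.40) near the median gene, and in border macrophages Mef2c (-2.37) and Maf (-1.87) were low at 3 dpi.

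Values of other genes moved with these library ratios. The injury macrophage markers summed in microglia to 328.3 and 86.86 CPM in the sham libraries, 27370 CPM at 3 dpi and 4229 CPM at 14 dpi, with none of the 10 at 0, against 52250 CPM in injury macrophages. The microglial markers summed to 28660 CPM with ActD and 7354 CPM at 3 dpi. Cycling cells, those with at least 3 of 8 proliferation markers, were 464 of 753 microglia at 3 dpi, 34 of 1700 in the ActD sham library and 69 of 4188 at 14 dpi. Within the 3 dpi library Sall1 was at 35.5 CPM in cycling and 63.4 CPM in other microglia (ratio 0.560, 0.480 to 0.654), Spi1 was equal in CPM (1.001), and the other 7 members were at 0.700 to 0.843. Sall1 had 455 UMIs in the 464 cycling cells and 262 in the 289 others, and Spi1 had 3718 and 1198. At equal CPM of Spi1, cycling cells thus held more UMIs per cell, and Sall1 per cell was not lower in them. The part of depth in this split was not tested. Without cycling cells Sall1 stood at 0.213 and Irf8 at 0.530 times the ActD sham level at 3 dpi, and 6 members, Sall1 included, were past 2-fold, beside 42.4% of all genes (32.8% lower and 9.6% higher). The part of the injury macrophage markers in these ratios was not tested.

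Cells were clustered within each library, so clusters are not shared between libraries and their numbers are not compared. The members varied among the clusters of microglia. At 3 dpi 727 of the 753 microglia lay in a single cluster led by Adamts1 and cell cycle genes, with 42.2 CPM of Sall1. At 14 dpi they spread over 6 clusters of at least 100 microglia. Sall1 was highest, at 168 CPM, in the cluster led by the immunoglobulin genes Igha and Igkc followed by P2ry12, Crybb1 and Siglech, and 147 CPM in the interferon-response cluster (Cxcl10, Ifit3, Ifit2). It was 49.1 CPM in the cluster led by the chemokines Ccl4 and Ccl3 and lowest, 40.1 CPM, in that led by Gpnmb, Apoc4 and Cd5l. Maf ranged from 166 to 354 CPM over the same clusters and Spi1 from 269 to 367 CPM. The clusters with 168 and 147 CPM of Sall1 had means of 8278 and 9776 UMIs per cell, and the others of 14 dpi 13649 to 15977. Sall1 had 1763 UMIs in the 1267 microglia of the first. In the cluster led by Ccl6, Fn1 and Cd72 it had 752 UMIs in 555 microglia, at 87.3 CPM. The part of depth in these values was not tested. In the standard sham library a cluster of 181 microglia led by Tmx4, Creb5, Nav2, AY036118 and Lncpint held 1447 CPM of Mef2a and 1427 CPM of Zeb2 against 247 CPM of Spi1, while the other 3 clusters held 528 to 717, 600 to 697 and 411 to 497 CPM. Its cells had a mean of 2280 UMIs and 5.23% mitochondrial UMIs, against 6682 to 8740 UMIs and 1.94% to 3.11% in the other 3, and the part of depth and RNA quality in its values was not tested. These are counts of cells of 1 library and describe it.

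Border macrophages showed another pattern in the same libraries. At 3 dpi Mef2c was at 0.194 (0.166 to 0.225) and Maf at 0.274 (0.253 to 0.296) times the ActD sham level, and Sall1, with 4 UMIs against 15, at 0.110 (0.0266 to 0.345). Among members with at least 20 UMIs in the pair Mef2c and Maf were past 2-fold, beside 29.8% of all genes, 17.6% lower and 12.2% higher. Mef2a stood at 1.04 and Zeb2 at 1.23, where microglia had 0.265 and 0.756. By 14 dpi Maf was back at 0.726 and Mef2c at 0.819, Mef2a stood at 1.74 (1.43 to 2.11), and no member was past 2-fold (10.1% of all genes were, 5.85% lower and 4.26% higher). From 3 to 14 dpi Mef2c was 4.23-fold (3.52 to 5.07) and Maf 2.65-fold higher (23.3% of all genes were past 2-fold, 9.08% lower and 14.3% higher). Of the border macrophages at 3 dpi 62.1% lay in clusters of that class, against 96.2% in the ActD sham library and 100% at 14 dpi. The part of other cells in the 3 dpi values was not tested. In the standard sham library Maf was at 0.458 (0.406 to 0.515), past 2-fold beside 21.3% of all genes (15.7% lower and 5.61% higher), and not past it with TMM scaling.

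In classical monocytes Mef2c stood at 0.287 (0.221 to 0.369) and Irf8 at 0.424 (0.360 to 0.498) of the standard sham level at 3 dpi, and Maf stood at 3.54 (2.55 to 4.99), where 22.1% of all genes were past 2-fold, 13.3% lower and 8.74% higher. After thinning to equal depth, Irf8 was seen in 25.0% (17.9 to 33.3) of standard sham and 21.8% (17.0 to 27.3) of 3 dpi monocytes. These intervals overlapped. At 14 dpi the Irf8 share was 30.9%. Mef2c was seen in 25.0% and 10.2%, and Maf in 9.09% and 18.8%, of the standard sham and 3 dpi monocytes. Whether a few cells carried the Irf8 ratio was not tested. From 3 to 14 dpi Mef2c was at 2.38, Irf8 at 2.13 and Maf at 0.509, and Spi1 was at 1.48 (23.7% of all genes were past 2-fold, 6.35% lower and 17.4% higher). With TMM scaling genes were 9.53% lower and 9.63% higher, Mef2c (1.91) and Irf8 (1.71) were not past 2-fold, Maf (0.409) was, and Spi1 stood at 1.18. From the standard sham library to 14 dpi Maf was at 1.80, Spi1 at 1.44 and Mef2c at 0.684, with no member past 2-fold beside 15.1% of all genes, 4.66% lower and 10.4% higher. The standard sham monocytes had Fn1 and Thbs1, markers of injury macrophages, among their leading genes, and the part of these in the first comparison was not tested. The standard sham library also lacked ActD, which cannot be told apart from injury in these ratios. In cDC2 Irf8 was 1.71-fold higher at 14 than at 3 dpi (1.48 to 1.97), with no member with 20 UMIs past 2-fold and 13.3% of all genes past it, 5.88% lower and 7.44% higher. In migratory DC Zeb2 was at 0.367 (0.206 to 0.626) and Irf8 at 1.93 (16.4% of all genes past 2-fold, 7.9% lower and 8.46% higher). In plasmacytoid DC Irf8 (1.13) changed little from the standard sham to the 14 dpi library, Mef2c was at 0.608, and Zeb1 was at 3.12 (1.26 to 8.41), where 13.6% of all genes were past 2-fold, 6.79% lower and 6.77% higher. The Zeb1 ratio rests on 16 against 8 UMIs. The lack of ActD in the standard sham library cannot be told apart from injury here either.

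The relatives of the members, 13 genes of the same families of which 11 passed the filter on low counts, gave 1 higher and 1 lower call in microglia against border macrophages. The higher was Sall3 and the lower was Spic, an ETS factor close to Spi1 and known from red pulp and bone marrow macrophages, at 0 to 66.6 CPM in border macrophages against 0.0559 to 0.130 CPM in microglia (log2 -6.28 ± 1.42, adjusted p = 0.011, edgeR). Border macrophages held 31 UMIs of Spic over all libraries, most of them in the standard sham library. Against injury macrophages 1 relative was higher, Sall3, the paralogue of Sall1, at 44.0 CPM in microglia and 1.12 CPM in injury macrophages (5.09 ± 0.87). Against plasmacytoid DC 3 were higher and 1 lower, Spib, the ETS factor of plasmacytoid DC and B cells (-6.55 ± 0.57). Against cDC2 3 were higher and 3 lower, among the latter Irf4, the interferon regulatory factor of cDC2 (-5.01 ± 0.74). The counts against the other classes, higher then lower, were 1 and 0 for classical monocytes, 0 and 2 for non-classical monocytes, 2 and 0 for cDC1 and 3 and 4 for migratory DC. The median log2 difference of the 11 relatives lay between -0.35 (cDC2) and 1.98 (plasmacytoid DC), where all genes tested had 0.05 and 0.11. Of all genes tested, 4.16% were called higher and 5.25% lower in microglia against border macrophages, and 2.59% and 2.73% against injury macrophages. These shares were 13.2% and 10.3% against classical and 3.61% and 5.61% against non-classical monocytes. For cDC1 they were 2.8% and 3.49%, for cDC2 8.07% and 7.74%, for migratory DC 10.7% and 9.01%, and for plasmacytoid DC 11.3% and 8.07%.

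Of 31 other transcription factors of mononuclear phagocytes, all tested, 1 was higher and 3 lower in microglia than in border macrophages, and the same numbers held against injury macrophages. Of all genes, 4.16% were higher and 5.25% lower against border macrophages, and 2.59% and 2.73% against injury macrophages. The shares of all genes for the other classes are given with the relatives. Pparg, a nuclear receptor of lipid handling, was lower than in border (log2 -4.62 ± 0.55) and injury macrophages (-3.80 ± 0.66). The former rests on 23 UMIs in border macrophages (5.33 to 8.25 CPM) and 27 in microglia over all libraries. Tfec was lower than in border macrophages (-3.85 ± 0.69), and Runx3 (-3.41 ± 0.45) and the liver X receptor gene Nr1h3 (-3.31 ± 0.65) were lower than in injury macrophages. Against classical monocytes 3 were higher and 10 lower, with Runx3 (-4.82 ± 0.38), Id3 (-4.06 ± 0.62) and Bcl11a (-3.78 ± 0.50) at the low end. Against non-classical monocytes 10 were lower, with Pparg and Nr4a1, the factor on which those monocytes depend, at the low end (460 CPM against 2.50 CPM in microglia). Against plasmacytoid DC 10 were higher and 6 lower, with Runx2 (-7.04 ± 0.48) and Bcl11a (-6.93 ± 0.57) at the low end. Against cDC1, cDC2 and migratory DC the counts, higher then lower, were 1 and 5, 1 and 8, and 6 and 8. Zbtb46, the factor of conventional DC, was among the lowest against cDC1 (-4.45 ± 0.83) and migratory DC (-5.68 ± 0.67). The median of the list lay between -0.74 (non-classical monocytes) and 0.96 (plasmacytoid DC), and that of all genes at 0.30 and 0.11.

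The 16 microglial genes outside the marker gate were called higher in microglia for 14 genes against border macrophages, 10 against injury macrophages, 15 against classical and 8 against non-classical monocytes, 7 against cDC1, 10 against cDC2, 13 against migratory DC and 12 against plasmacytoid DC, and none was called lower. Their median log2 difference was 3.11 over border and 3.14 over injury macrophages, where all genes had 0.08 and -0.01. Those furthest apart from border macrophages were the adhesion receptor Adgrg1 (5.35 ± 0.57), the fructose transporter Slc2a5 (4.70 ± 0.44) and Ecscr (4.41 ± 0.49). Of all genes tested, 4.16% were called higher against border macrophages, and the shares for the other classes are given with the relatives. In the microglial libraries 13 of the 16 were at least 2-fold below the ActD sham level both at 3 and at 14 dpi, with medians of -2.88 and -1.33, and 2 in the standard sham library, where 32.6%, 19.7% and 22.7% of all genes were that much lower. Upk1b was lowest in all 3, at 0.00858 (4 against 492 UMIs) at 3 dpi, 0.0301 at 14 dpi and 0.490 in the standard sham library. The medians of all genes were -0.53, -0.54 and -0.55.

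Of 12 genes known as PU.1 targets, 2 were higher and 1 lower in microglia than in border macrophages, 1 was higher than in injury macrophages, 3 were higher and 1 lower than in classical monocytes, and 2 were lower than in non-classical monocytes. Against cDC1 6 were higher, against cDC2 5 were higher and 1 lower, against migratory DC 9 were higher, and against plasmacytoid DC 9 were higher and 1 lower. The shares of all genes called in these comparisons, 4.16% higher and 5.25% lower for border macrophages, are given with the relatives. The colony stimulating factor receptor Csf1r, at 1837 CPM in microglia and 132 CPM in cDC1 at 14 dpi, was among the genes furthest apart there (3.85 ± 0.67). The median of the 12 was 0.39 over border macrophages and 1.98 over plasmacytoid DC, against 0.08 and 0.11 for all genes. In microglia 1 of the 12 was at least 2-fold higher and 5 were lower at 3 dpi than in the ActD sham library, and 1 and 1 at 14 dpi, with medians of -0.34 and -0.15, beside 13.3% higher and 32.6% lower of all genes at 3 dpi and 5.72% and 19.7% at 14 dpi.

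In the library ratios of microglia over the ActD sham library, 30.5% of all genes were past 2-fold in the standard sham library (7.73% higher, 22.7% lower), 45.9% at 3 dpi (13.3% and 32.6%) and 25.4% at 14 dpi (5.72% and 19.7%). Relatives with at least 20 UMIs were 2-fold higher and lower in 4 and 1 of 10 (standard sham), 2 and 3 of 9 (3 dpi) and 2 and 3 of 10 (14 dpi) genes. Bhlhe40, the closest relative of Bhlhe41, was at 12 (8.32 to 18) at 3 dpi and 13.8 (9.64 to 20.3) at 14 dpi. Of the other factors 10 were higher and 1 lower of 29 in the standard sham library, 7 and 15 of 30 at 3 dpi and 3 and 4 of 30 at 14 dpi. Klf4 was at 93.8 (81.0 to 109) and Irf7 at 0.182 in the standard sham library. At 3 dpi Nr4a1 was at 29.7 (20.6 to 44.3), and Tfec was at 27.1 (8.93 to 134), from 3 UMIs in the ActD sham library.

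The genes with the pattern most like each member were ranked by Pearson correlation of log2(CPM + 1) over 31 class sums of the 4 libraries, neutrophils and lymphocytes included, among 11578 genes. Class sums of 1 library share its depth and dissociation, so the values describe likeness and carry no test. Sall1 was most like Slc2a5 (0.922), Gm16118 and Adamts16, and Bhlhe41 most like Scoc (0.922), Slco2b1 and Eya4. Mef2a was most like P4ha1 (0.895), Laptm4a and Rrbp1, and Mef2c most like Serinc3 (0.869), Tcf4 and Snx29. Maf was most like the chemokine gene Ccl12 (0.898), Gas6 and Arhgef12. Spi1 was most like Skap2 (0.902), and Irf8 most like Map4k5 (0.809), Tcf4 and Cdip1. Zeb1 was most like Supt20 (0.805), Kif21b and Eml5, and Zeb2 most like its antisense gene Zeb2os (0.849), Slc36a4 and Fbxl15, and the strand setting of the counting was not given in the sources used here. Among the members themselves Sall1 and Bhlhe41 were most alike (0.789) and Zeb1 and Zeb2 least (-0.570).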

How the data were processed

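Droplet single-cell RNA sequencing (10x 3′ chemistry) was done on CD45+ cells of 4 spinal cord libraries, 1 per condition, each pooled from several mice. The authors deposited unnormalised counts of UMIs for each gene in each barcode, made with Cell Ranger (3.0.1 or 3.1.0 per the file headers) on mm10. Counting settings such as strand are not given in the sources used here. Cells were kept if they had 600 or more genes and no more than 10% of UMIs from mitochondrial genes. Cells with Itgam together with a lymphocyte marker were removed, as were Scrublet doublets at an expected 0.8% per 1000 cells (34 to 584 per library). Classes were set by a marker score without the 9 members.

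Counts were summed per class and library (at least 30 cells) and fitted with edgeR 4.0.16 (R 4.3.3; quasi-likelihood, TMM, class and library terms, Benjamini-Hochberg over 11876 genes), with DESeq2 1.42.0 as an alternative. The fit was also run on counts simulated from its own dispersions, which cannot check the spread assumed for classes with a single sum. Levels are CPM of the summed counts with exact Poisson intervals, and ratios between libraries carry exact conditional Poisson intervals, at 95%, for counting error only. Ratios counted as past 2-fold needed 20 UMIs in the pair. Shares were thinned to 2000 UMIs per cell. Clusters came from scanpy 1.11.5 (Leiden, resolution 1), run on each library by itself. The members, lists and markers were chosen with earlier results of these data known. The text names the 9 members, the up to 3 genes of each list group with the largest and smallest fitted change per comparison, and the 3 genes most like each member (log2(CPM + 1), at least 200 UMIs), some of which are not reported here. Relatives, other factors, microglial genes and PU.1 targets form those lists. Sall3 against border macrophages falls outside this rule and was named after its values were seen, as the 1 relative called higher there.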

Additional observations from a re-analysis of the deposited data

Results flagged for a closer look

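In 11 cases the level of a member moved in opposite directions in 2 classes of the same pair of libraries, with counting intervals of both ratios clear of 1. The share of all genes that meet this rule was not computed, so the count says nothing particular about the members. The cases are also not separate, since those of Zeb2 at 14 over 3 dpi reuse the same ratios. Each case rests on 1 library per condition, and the differences between classes were not tested. The ratios are of CPM without TMM scaling, and some cases depend on that. With TMM scaling the interval of Spi1 in border macrophages (standard over ActD sham) spanned 1. That of Zeb2 in cDC2 (14 over 3 dpi) also spanned 1, and Zeb2 in microglia at 3 dpi lay above 1.

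Mef2a at 14 dpi over the ActD sham library was at 1.74 (1.43 to 2.11) in border macrophages and 0.447 (0.437 to 0.457) in microglia, a log2 difference of 1.96. Spi1 in the standard over the ActD sham library was at 1.05 in microglia and 0.717 (0.575 to 0.889) in border macrophages, a log2 difference of 0.55. Zeb2 at 3 dpi over the ActD sham library was at 1.23 in border macrophages and 0.756 in microglia, a difference of 0.70, and relative to the median gene of each class both values were positive (0.47 and 0.13).

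Maf at 14 over 3 dpi was at 0.509 in classical monocytes, against 1.46 in microglia (log2 difference 1.52) and 2.65 in border macrophages (2.38). Zeb2 at 14 over 3 dpi was at 1.08 in microglia and 1.15 in cDC2, and below 1 in border macrophages (0.865, 0.746 to 0.999), classical monocytes (0.917) and migratory DC (0.367). The log2 differences of microglia from these 3 classes were 0.32, 0.23 and 1.55, and those of cDC2 were 0.41, 0.33 and 1.65.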

How the results depend on the processing

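Of 678 refits of the 41 called differences, 615 kept the call, 63 lost it and 0 changed sign. Leaving out 1 library at a time gave 2 to 5 members called against border macrophages, 0 to 3 against injury macrophages, 3 to 6 against classical monocytes, and 2 to 6 each against cDC2, migratory DC and plasmacytoid DC, with the lowest value without the 14 dpi library. With sums of at least 100 cells 0 members were called against border and 1 against injury macrophages. With classes taken from clusters 2 were called against border macrophages, 4 against classical monocytes and 3 against cDC2. A fit of only the 2 classes called 3 against classical monocytes, and a fit with no library block 3 against cDC1. Members past 2-fold in microglia at 14 dpi over the ActD sham library numbered 1 with TMM and 1 with median-of-ratios factors (17.6% and 17.4% of all genes). In border macrophages of the standard sham library they numbered 4 by clusters (22.3% of all genes), 2 without doublet removal (21.3%), 0 with TMM (17%), 0 with median-of-ratios factors (17.2%) and 2 at a 1.5-fold limit (42.6%). At 3 dpi they numbered 5 by clusters (35.1%), and at 14 dpi 1 at the 1.5-fold limit (29.4%). The cause of these shifts was not tested, beyond the fewer samples or cells that an alternative keeps.

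The log2 difference changed sign for 10 uncalled values. They were Spi1 over injury macrophages (-0.026 with at least 100 cells, and -0.14 to 0.14 on leaving out a library), over cDC1 (0.081 with no filter on low counts, 0.0064 without the ActD sham library, and -0.25 to 0.030 on leaving out a library) and over migratory DC (-0.35 to 0.044 on leaving out a library), Mef2c over plasmacytoid DC (-0.13 with no library block), and Zeb1 over plasmacytoid DC (-0.046 with DESeq2, -0.013 with RLE size factors, and -0.94 to 1.20 on leaving out a library).

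Over all genes, calls against border macrophages numbered 1117, and 3 with at least 100 cells, 731 with no library block, 400 without the 14 dpi and 652 without the ActD sham library. Against injury macrophages they numbered 632, and 69 with at least 100 cells, 274 by clusters, 1054 with the injury macrophages of 14 dpi kept (chosen after seeing the data), 964 with no filter, 352 with no library block and 0 without the 14 dpi library. For classical monocytes 2792 became 1674 with only the 2 classes and 1182 without the 14 dpi library, and with no library block 1095 became 686 for non-classical monocytes and 748 became 484 for cDC1. For cDC2 1877 became 1162 with at least 100 cells and 300 without the 14 dpi library. For migratory DC 2340 became 368 without the 14 dpi and 1463 without the 3 dpi library, and for plasmacytoid DC 2304 became 462 without the 14 dpi and 1075 without the standard sham library. Classes were compared within libraries by the library block. Between conditions this could not be done. No paired analysis was possible because each condition had 1 library. Counts of few cells limit Sall1 and Zeb1 outside microglia.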

Other observations

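Some members were also well detected outside the mononuclear phagocytes. Neutrophils held 701, 725, 513 and 623 CPM of Spi1 without injury (standard, then ActD) and at 3 and 14 dpi. B cells held 439, 361, 522 and 374 CPM of Mef2c, which acts in B cell activation, and 254, 225, 363 and 215 CPM of Irf8. NK cells, from 14 dpi alone, held 647 CPM of Irf8. T cells held 187 and 181 CPM of Maf and 53.6 and 53.4 CPM of Zeb1 at 3 and 14 dpi. These values come from 1 library per condition and were not tested.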
